A study of Homo sapiens with 12 samples.

Results

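The data described here are the 6 RNA-seq libraries of EW8 cells in which c-Jun and c-Fos were or were not induced, 3 libraries with vehicle and 3 with doxycycline, of 12 libraries in the series. They were chosen by the cell line and treatment given in the sample labels, and all genes of the count table were considered. EW8 is an Ewing sarcoma cell line, grown in DMEM with 10% FBS. Every culture, vehicle included, carried a lentiviral insert in which the cDNAs of c-Jun and c-Fos, joined by a sequence for a self-cleaving peptide, stand behind the doxycycline-responsive TRE3G promoter. A further lentiviral insert expressed the Tet-On 3G transactivator from the EF1 alpha promoter, and the cells had been infected with both in sequence and selected with geneticin and puromycin. The treated group received doxycycline at 2000 ng/ml for 72 h and the vehicle group DMSO for 72 h. The labels call the vehicle genotype WT and the treated genotype AP1_overexpression, although both groups carry the inserts. Cells without the inserts that received doxycycline were not analysed here, so what doxycycline itself does and what the induced proteins do cannot be told apart. TC71, the other Ewing sarcoma line of the series, carried the same inserts, received the same treatments (3 libraries each) and entered the fit and the comparison at the end.

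Total counts ranged from 42860665 to 56771817 over the 6 EW8 libraries. The first principal component of the 6 libraries held 75.6% of the variance and placed the 3 vehicle libraries on one side and the 3 doxycycline libraries on the other. Between EW8 replicates the chi-square statistic, divided by the number of genes, ran from 5.42 to 11.1. Sampling noise alone gives about 1 where each read pair is counted once, and more here, where both mates are counted. The values were still above that noise, so no library was a repeat of another. TC71 vehicle replicate 1 stood apart from its group, at 65.4 and 63.8 against the other two libraries. Nothing in the labels states that the replicates came from separate cultures, so p-values measure the spread between these samples, which may be technical. In bulk RNA, fewer cells of a kind and less RNA per cell cannot be told apart. Values are CPM, the field's usual counts scaled to a common library size, here with edgeR's TMM factors, and a gene was called higher or lower at an adjusted p under 0.05 with a log2 fold change beyond 1 in either direction (edgeR quasi-likelihood test). A group with all 3 libraries at or under 6 counts, which is 3 read pairs and about 0.12 CPM, was taken to be at the floor, and a fold against such a group is given as a lower bound, computed over the group from the mean CPM of 6 counts. Floors and bounds cover counting error only. The SE given with a log2 fold change, or with a difference of them, was back-calculated. It is the size of the value divided by the square root of the F statistic of its test. It is an approximate spread and not a standard error given by the fit.

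AP-1 is a transcription factor assembled as a dimer from basic leucine zipper proteins of the JUN, FOS, ATF and MAF families. The JUN and FOS pair binds the sequence TGAGTCA, activates genes of the extracellular matrix, of matrix proteolysis, of inflammation and of wound repair, and is itself an early product of growth factor and stress signalling. Ewing sarcoma is driven in most tumours by the fusion of EWSR1 with an ETS family gene, usually FLI1, whose product activates some genes and represses others, among them many genes of mesenchymal cells.

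Both induced genes were higher in every doxycycline library than in every vehicle library. The JUN gene, ENSG00000177606.6, chromosome 1, 58780788 to 58784327, minus strand, was at 20.3, 24.6 and 19.8 CPM in the 3 vehicle libraries and at 504, 495 and 422 CPM in the 3 doxycycline libraries (log2 fold change 4.46, SE 0.12, adjusted p 1.93e-15). Likewise FOS (ENSG00000170345.9, chromosome 14, 75278774 to 75282230, plus strand) was at 36.8, 37.6 and 35.9 CPM and at 1096, 1139 and 999 CPM (log2 fold change 4.87, SE 0.07, adjusted p 4.23e-19). The third doxycycline library had the lowest value of its group for both. Reads from the inserts and from the endogenous genes fall into the same counts, so these values do not tell how much of either came from the insert.

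Other members of the AP-1 family, which do not stand in the insert, rose as well. Of the 17 AP-1 subunits tested other than JUN and FOS, 9 were called higher (52.9%, against 11.4% of all 21013 genes tested), 1 was called lower (5.88%, against 3.38%), and the median log2 fold change was 1.03 against -0.03 over all tested genes. With the 2 induced genes the counts were 11 of 19 called higher (57.9%) and the median 1.26. FOSL1, the FRA1 subunit, was at 1.06, 0.523 and 0.952 CPM with vehicle and 94.4, 106 and 96.1 CPM with doxycycline (log2 fold change 6.86, SE 0.15, adjusted p 1.66e-16). FOSL2, the FRA2 subunit, was at 2.28, 2.22 and 2.26 CPM and 109.6, 118 and 109.8 CPM (log2 fold change 5.64, SE 0.13, adjusted p 1.70e-16). These were the largest rises of the family, larger in log2 fold than those of JUN and FOS themselves. JUNB, a partner that activates some AP-1 sites less strongly than JUN, was at 8.95, 10.5 and 11.3 CPM and 50.7, 47.5 and 37.5 CPM (log2 fold change 2.14, SE 0.11, adjusted p 1.69e-11). The small MAF proteins, which lack an activation domain, followed, with MAFF at 2.23, 2.44 and 2.08 CPM and 21.2, 24.7 and 21.4 CPM (log2 fold change 3.32, SE 0.17, adjusted p 1.22e-11) and MAFK at a log2 fold change of 1.66 (adjusted p 2.07e-09). JDP2 (2.28), BATF2 (2.83), ATF3 (1.26) and FOSB (1.03) were called higher from low vehicle levels. FOSB lost its call without vehicle replicate 1 (0.75, adjusted p 0.147), vehicle replicate 2 (adjusted p 0.0771), doxycycline replicate 1 (0.065) or doxycycline replicate 2 (0.0824), and also with the replicate block (0.0522) or with scaling by library size alone (log2 fold change 0.97). JUND, usually the steadiest JUN protein, did not pass the test, with 67.1, 77.5 and 74.6 CPM against 81.2, 82.4 and 74.2 CPM and overlapping groups (adjusted p 0.601). MAF, a large MAF protein, was called lower, at 6.0, 5.67 and 5.78 CPM with vehicle and 2.77, 2.33 and 2.28 CPM with doxycycline (log2 fold change -1.24, SE 0.24, adjusted p 7.36e-04). Apart from JUND, the vehicle and doxycycline libraries did not overlap for any of these genes.

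**Figure D1:**
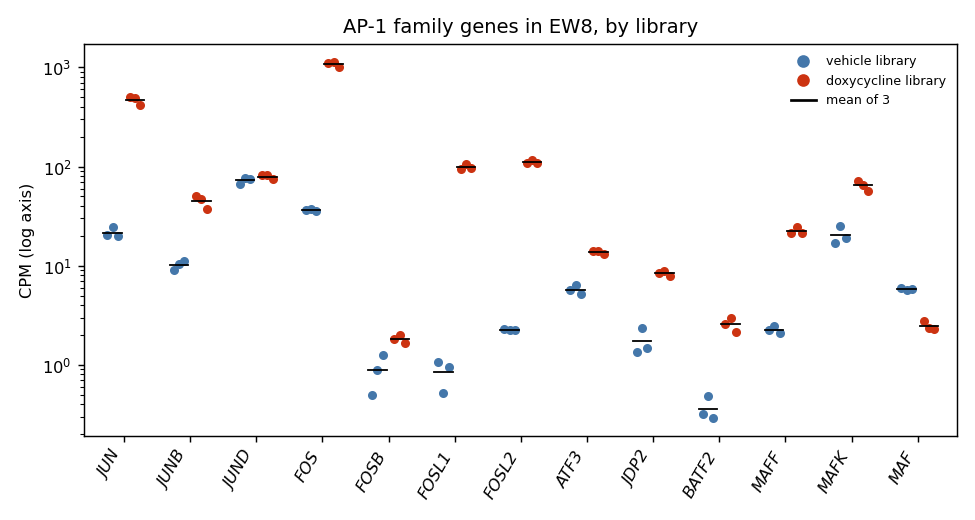
AP-1 family genes in EW8, with CPM on a log axis: each point is a library, the bar is the mean of 3 libraries, vehicle is blue and doxycycline red. FOS and JUN reach the highest levels with doxycycline, FOSL1 and FOSL2 rise from vehicle means of 0.845 and 2.25 CPM, JUND overlaps between the groups and MAF falls.

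Across the transcriptome, 2401 genes were called higher and 711 lower, so 77.2% of the 3112 calls were higher. Without the fold limit, 4598 genes were higher (21.9%) and 4618 lower (22%). Large changes were nearly all rises. By fitted values, genes at the floor included, a log2 fold change over 3 was found for 982 genes called higher, and one under -3 for 44 genes called lower. The vehicle group was at the floor for 639 of the genes called higher, 120 of which had a bound under 2-fold, 25 with both groups at the floor, and the doxycycline group was at the floor for 86 of the genes called lower. The 3 doxycycline libraries lay above the 3 vehicle libraries for 2352 of the 2401 genes called higher and below them for 677 of the 711 called lower, and over all tested genes this was so for 26.9% and 29.1%. Genes called higher made up between 3.28% and 3.34% of the counts of the vehicle libraries and between 11.8% and 12.4% of those of the doxycycline libraries. Genes called lower went from between 1.94% and 2.00% of the counts to between 0.778% and 0.827%. These 2 classes were chosen by the same contrast, so their shares are a description. Among protein-coding genes between 10 and 100 CPM per kilobase of exon with vehicle, 2.88% of 3926 were called higher, and at any fold 45.1% were lower and 20.3% higher. No such share is given for genes near 0 with vehicle, since these enter the test only where another group lifts them over the filter on low counts.

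**Figure D2:**
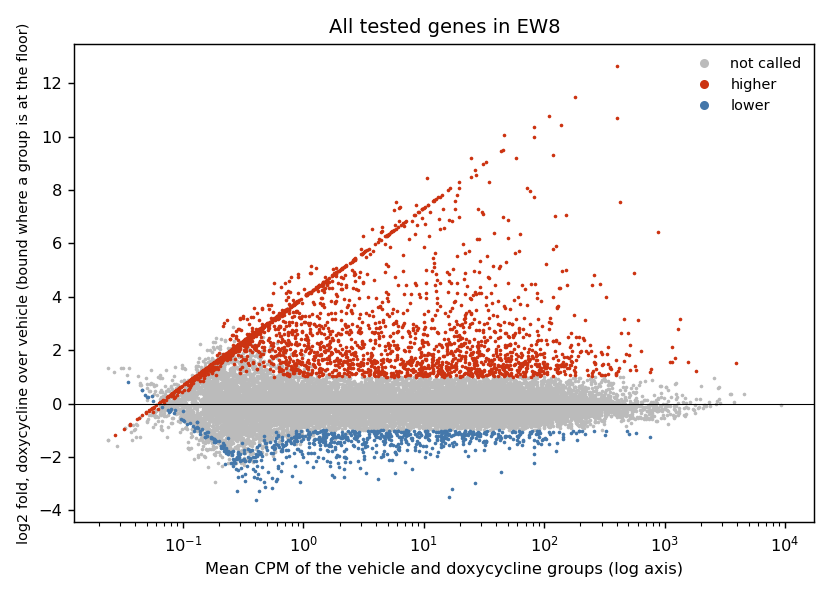
All tested genes in EW8, except those with both groups at the floor: the mean CPM of the 2 groups on a log axis against the log2 fold of doxycycline over vehicle, given as a bound where a group was at the floor. Genes called higher (2401) are red and genes called lower (711) blue. The rises reach a bound of 6457-fold for CXCL8. Among protein-coding genes called lower and above the floor with doxycycline, the largest fall is 12.4-fold for PRODH.

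The largest bounds belonged to CXCL8, LRRC15 and TNFRSF9, genes at the floor with vehicle. CXCL8, the neutrophil chemokine interleukin 8 (ENSG00000169429.10, chromosome 4, 73740506 to 73743716, plus strand), was at 0, 0.0436 and 0 CPM with vehicle and at 749, 890.0 and 775 CPM with doxycycline, at least 6457-fold higher (adjusted p 1.81e-18). LRRC15, a membrane protein of activated fibroblasts (ENSG00000172061.8, chromosome 3, 194355247 to 194369743, minus strand), had no count in any vehicle library and reached 354, 386 and 337 CPM, at least 2883-fold higher (adjusted p 5.42e-18). TNFRSF9, the costimulatory receptor 4-1BB (ENSG00000049249.8, chromosome 1, 7915894 to 7943165, minus strand), was at 0.135, 0.131 and 0.0359 CPM and 211, 234 and 212 CPM, at least 1755-fold higher (adjusted p 9.59e-17). In each of these the doxycycline libraries differed among themselves by far less than from the vehicle libraries. IL1A, the alarm cytokine interleukin 1 alpha (ENSG00000115008.5, chromosome 2, 112773915 to 112784590, minus strand), was at 0.135, 0.262 and 0.701 CPM and 216, 257 and 231 CPM (log2 fold change 9.23, SE 0.22, adjusted p 2.44e-16). These 4 genes carry the AP-1 sequence in the 250 bases before their RefSeq start, and they have the largest folds or bounds among the named genes that do.

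The windows are printed here 5′ to 3′ in the direction of the gene because the AP-1 sequence lies at a different distance from the start in each: from 137 bases before the start in CXCL8, 48 in LRRC15, 44 in TNFRSF9 and 12 in IL1A. They are taken from RefSeq on GRCh38.p14, at chr4:73740319-73740568 (plus strand), chr3:194369744-194369993 (minus strand), chr1:7940840-7941089 (minus strand) and chr2:112784494-112784743 (minus strand). Capitals mark TGAGTCA or, read on the other strand, TGACTCA.
CXCL8: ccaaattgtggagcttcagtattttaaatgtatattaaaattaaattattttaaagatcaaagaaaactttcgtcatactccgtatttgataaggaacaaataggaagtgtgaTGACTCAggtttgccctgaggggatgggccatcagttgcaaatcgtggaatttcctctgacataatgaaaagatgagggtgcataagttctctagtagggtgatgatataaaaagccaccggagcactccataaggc
LRRC15: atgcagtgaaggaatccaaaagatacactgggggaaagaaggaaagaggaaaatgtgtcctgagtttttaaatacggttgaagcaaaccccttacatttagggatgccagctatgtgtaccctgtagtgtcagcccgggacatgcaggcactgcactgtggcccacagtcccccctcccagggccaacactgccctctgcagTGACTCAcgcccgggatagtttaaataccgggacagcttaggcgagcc
TNFRSF9: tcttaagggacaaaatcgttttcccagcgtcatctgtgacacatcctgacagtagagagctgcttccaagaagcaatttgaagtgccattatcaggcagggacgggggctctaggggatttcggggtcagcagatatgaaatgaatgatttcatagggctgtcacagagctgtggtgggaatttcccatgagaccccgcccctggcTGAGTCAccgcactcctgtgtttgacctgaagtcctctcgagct
IL1A: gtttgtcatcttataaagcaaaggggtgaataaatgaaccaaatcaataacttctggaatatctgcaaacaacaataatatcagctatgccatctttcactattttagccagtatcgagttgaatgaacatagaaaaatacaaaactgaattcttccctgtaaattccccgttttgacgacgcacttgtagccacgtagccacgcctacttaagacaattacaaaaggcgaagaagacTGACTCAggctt

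Each window held 1 such match. For CXCL8, TNFRSF9 and IL1A the RefSeq start lies inside the span that the count table gives for the gene. A match is a description of the letters and was not tested as a binding site. Of the 13035 tested genes with a window, 3.05% had TGAGTCA on either strand in the 250 bases before the start (4.12% of all 27195 windows in the table). The share was 8.52% (134 of 1573) among genes called higher, 12.2% (72 of 588) among those with a log2 fold change over 3, 2.33% (257 of 11027) among genes not called and 1.38% (6 of 435) among genes called lower. Genes near 0 with vehicle enter these classes only where another group lifts them over the filter on low counts. The classes thus differ in vehicle level, the share was not computed for genes above the floor alone, and these shares are a description. The related sequence TGACGTCA, the cAMP response element, which does not contain TGAGTCA, was in 1.65% of the windows of genes called higher and 2.89% of those not called. A GGAA repeat, 3 units in a row, the kind of sequence that EWS-FLI1 binds, was in 1 window of the genes called higher and in none of those called lower. Over all 13035 windows of tested genes it was in 7 (0.0537%), too few to compare the classes. The table of windows is not complete, and FOSL1 and MMP1 are among the genes with none.

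Among protein-coding genes above the floor with vehicle, INHBA, which encodes the subunit of activin A, had the largest fold, 1672-fold, from 0.451, 0.479 and 0.503 CPM with vehicle to 805, 863 and 729 CPM with doxycycline (log2 fold change 10.69, SE 0.1, adjusted p 1.55e-21). NT5E, the ecto-enzyme CD73 that makes adenosine outside the cell, went from 0.271, 0.218 and 0.108 CPM to 277, 282 and 262 CPM (log2 fold change 10.46, SE 0.17, adjusted p 1.81e-18). TGFBI, a matrix protein that binds integrins, went from 0.0902, 0.218 and 0.18 CPM to 169, 164 and 157 CPM (log2 fold change 9.93, SE 0.12, adjusted p 5.58e-20). The calcium-binding protein S100A16 (10.10), the urokinase gene PLAU (9.09), TMEM52B (9.19) and the tight junction gene CLDN14 (8.48) completed the 8 largest. PLAU shares 31.1% of its exon bases with another gene, and reads on shared bases were left out of its count. At the floor with vehicle, IL13RA2, the decoy receptor for interleukin 13, reached 167, 157 and 171 CPM, at least 1326-fold higher, TM4SF1 reached 90.9, 90.2 and 90.8 CPM, at least 728-fold higher, and the chemokine gene CXCL2 reached a mean of 87.6 CPM, at least 703-fold higher. No vehicle library overlapped a doxycycline library for any of these 10 genes.

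Among protein-coding genes above the floor with doxycycline, the largest falls were smaller. The 86 genes called lower with doxycycline at the floor are not ranked here. BTBD17 went from 27.4, 31.5 and 30.2 CPM with vehicle to 2.94, 2.41 and 2.56 CPM with doxycycline (log2 fold change -3.49, SE 0.26, adjusted p 3.19e-09). TXNIP, an inhibitor of thioredoxin that limits glucose uptake, went from 28.5, 34.2 and 30.8 CPM to 2.68, 4.53 and 3.01 CPM (log2 fold change -3.19, SE 0.17, adjusted p 2.29e-11). FCGBP, a mucin-like secreted protein, went from 42.2, 44.7 and 53.9 CPM to 7.59, 5.61 and 4.82 CPM (log2 fold change -2.96, SE 0.21, adjusted p 2.20e-09). The groups did not overlap for any of the 3. Proline dehydrogenase PRODH (-3.51), the testis gene CTCFL (-3.01), the collagen gene COL6A6 (-2.93), LRRN3 (-2.92) and BCL6B (-2.84) completed the 8 largest folds of that ranking. These were all under 2 CPM in every vehicle library. BCL6B lost its call when a library was left out, with an adjusted p of 0.0605 without vehicle replicate 1, 0.101 without vehicle replicate 2, 0.067 without vehicle replicate 3, 0.124 without doxycycline replicate 1 and 0.103 without doxycycline replicate 3.

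Ranked by the change in CPM per kilobase of exon, which compares genes of different length, 7 of the 8 largest gains were of genes above the floor with vehicle. PKM, the pyruvate kinase of glycolysis, went from 1979, 2104 and 2013 CPM to 5922, 5895 and 5607 CPM (log2 fold change 1.52, SE 0.05, adjusted p 1.13e-14), and per kilobase from 237 to 678 CPM. Thymosin beta 10, an actin-binding peptide (TMSB10), went from 1170.3 to 3439 CPM per kilobase (log2 fold change 1.56), the protease inhibitor TIMP1 from 370.2 to 1204 (1.7), SH3BGRL3 from 66.9 to 418 (2.64), the lysosomal protein prosaposin (PSAP) from 175 to 514 (1.55) and galectin 1 (LGALS1) from 164 to 453 (1.47). FOS and CXCL8, the one gene of the 8 at the floor with vehicle, were the other 2. The largest losses per kilobase were those of MBD3L3, MBD3L4, MBD3L5, MBD3L2B and MBD3L2 on chromosome 19, with log2 fold changes between -1.16 and -1.1. These 5 are close copies of each other, reads that map to several places were left out, and their values are therefore uncertain. LRATD2 (1072, 1009 and 1105 CPM with vehicle, 444, 417 and 466 CPM with doxycycline, log2 fold change -1.26, SE 0.06, adjusted p 2.61e-12) and ITM2A (449, 432 and 427 CPM, 210.1, 216 and 218 CPM, log2 fold change -1.02, SE 0.05, adjusted p 1.80e-11) followed. ITM2A stands at the fold limit, and 7 alternatives put it between -0.958 and -0.998, short of the limit. RN7SL2, a non-coding RNA of the signal recognition particle without a poly(A) tail, was at 19.4, 45.3 and 17.1 CPM with vehicle and 7.57, 10.4 and 10.5 CPM with doxycycline (log2 fold change -1.52), and at -0.94 without vehicle replicate 2.

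Genes of the extracellular matrix rose in part. Of 41 matrix glycoproteins and matricellular proteins tested, 18 were called higher (43.9%) and 1 lower, with a median log2 fold change of 0.84. Tenascin C (TNC), an anti-adhesive glycoprotein of wounds and tumour stroma, was at 22.1, 17.8 and 20.9 CPM with vehicle and 1789.6, 1828 and 1603 CPM with doxycycline (log2 fold change 6.42, SE 0.14, adjusted p 1.28e-16). Fibronectin (FN1), the main adhesive glycoprotein, was already high, at 764, 793 and 808 CPM, and reached 2244, 2424 and 2297 CPM (log2 fold change 1.56, SE 0.14, adjusted p 6.43e-08). Syndecan 4 (SDC4), a heparan sulfate receptor of focal adhesions, went from 11.7, 10.6 and 9.7 CPM to 160.0, 169.9 and 162 CPM (log2 fold change 3.95, SE 0.09, adjusted p 2.34e-16). The libraries did not overlap for any of the 3. Lumican (LUM), a collagen-binding proteoglycan, was the gene called lower, at 0.541, 0.741 and 0.18 CPM and 0.143, 0.119 and 0 CPM (log2 fold change -2.36, SE 0.65, adjusted p 0.00616). Fibrillar collagens behaved otherwise. Of 16 tested, 3 were called higher (18.8%) and none lower, and the median was -0.13. COL1A1, the chain of type I collagen, was at 26.1, 30.6 and 29.2 CPM and 31.8, 31.2 and 33.8 CPM (adjusted p 0.244), and COL3A1 at 45.4, 47.4 and 50.3 CPM and 32, 33.9 and 38.6 CPM (log2 fold change -0.46, adjusted p 3.54e-05). The called members were COL5A3 (log2 fold change 1.41, SE 0.1, adjusted p 1.44e-09), COL11A1 (log2 fold change 3.17, SE 0.75, adjusted p 0.00201) and COL24A1 (log2 fold change 1.29, SE 0.32, adjusted p 0.00271), which stood at 0.97 without doxycycline replicate 1.

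Among 17 basement membrane and transmembrane collagens, 6 were called higher (35.3%) and 1 lower, with a median of 0.8. With 10 counts required in every EW8 library, 2 of 11 were called higher (18.2%) and 1 lower. COL17A1, the hemidesmosome collagen of epithelia, had no count in the vehicle libraries and 31.2, 32.6 and 32.3 CPM with doxycycline, at least 257-fold higher (adjusted p 2.80e-14). COL4A6 was at least 30.9-fold higher, and COL7A1, the anchoring fibril collagen, rose from 3.4 ± 0.038 to 16.8 ± 2.47 CPM (SD, n = 3). COL13A1, a transmembrane collagen, fell from 20.8 ± 1.6 to 6.82 ± 0.226 CPM (log2 fold change -1.61, SE 0.11, adjusted p 7.06e-10). Of 15 laminins and nidogens, which build the basement membrane sheet, 7 were called higher (46.7%) and none lower. LAMA4, an alpha chain, went from 0.361, 0.0436 and 0.503 CPM to 8.32, 9.82 and 9.39 CPM (log2 fold change 4.87, SE 0.39, adjusted p 8.58e-09). The groups did not overlap. LAMA3 and LAMB3 were also called higher, by 1.28 and 1.76 on the log2 scale.

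Integrins, the receptors for these ligands, rose in 11 of 22 tested (50%), none was called lower, and 2 of the 11 were at the floor with vehicle. With 10 counts required in every EW8 library, 7 of 14 were called higher. ITGA2, the alpha chain of a collagen receptor, went from 3.38, 4.1 and 5.05 CPM to 228, 228 and 236 CPM (log2 fold change 5.77, SE 0.1, adjusted p 3.97e-18). ITGA5, the alpha chain of the fibronectin receptor, went from 135, 137 and 139.7 CPM to 868, 849 and 827 CPM (log2 fold change 2.63, SE 0.06, adjusted p 3.69e-16), and ITGAV, which binds vitronectin and latent TGF-beta, from 47.1, 45.3 and 46.2 CPM to 299.9, 289.9 and 283 CPM (log2 fold change 2.66, SE 0.07, adjusted p 9.46e-16). ITGAX, the CD11c chain known from dendritic cells, reached 65.5, 62.6 and 57.6 CPM from the floor, at least 497-fold higher. ITGB6 was also called, from 0, 0 and 0 CPM with vehicle and 0.0358, 0.119 and 0.183 CPM with doxycycline, too few counts for a fold.

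Among enzymes that cut the matrix, and their inhibitors, many were called higher and none lower. Of 20 matrix metalloproteinases and their inhibitors (TIMPs), 11 were called higher (55%) and none lower, or 6 of 14 (42.9%) with 10 counts required in every EW8 library. MMP1, an interstitial collagenase, was at 0.541, 0.392 and 0.323 CPM with vehicle and 63.9, 61.2 and 56.6 CPM with doxycycline (log2 fold change 7.19, SE 0.15, adjusted p 3.90e-17). MMP10, a stromelysin, had no count with vehicle and 34.4, 34.3 and 30.9 CPM with doxycycline, at least 266-fold higher. MMP9, a gelatinase, rose from 1.6 ± 0.262 to 36.2 ± 1.15 CPM and TIMP1 from 570.5 ± 7.94 to 1855 ± 26.2 CPM (SD, n = 3). In the plasminogen system and the serpins, which start and restrain the same proteolysis, 13 of 18 were called higher (72.2%, or 7 of 11 with 10 counts required) and none lower, with a median of 3.44, or 3.17 with bounds in place of fitted values at the floor. PLAU went from 0.135, 0.0872 and 0.377 CPM to 116, 127 and 108 CPM (log2 fold change 9.09, SE 0.22, adjusted p 3.76e-16) and its receptor PLAUR from 6.27, 8.33 and 6.25 CPM to 63.8, 64.8 and 61.5 CPM (log2 fold change 3.19, SE 0.12, adjusted p 1.04e-13). The protease and its receptor were thus both higher in the same libraries. SERPINB2, a plasminogen activator inhibitor, was at least 175-fold higher.

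Genes of the actin cytoskeleton and focal adhesions changed less but widely. Of 38 tested, 14 were called higher (36.8%), 15 more rose by less than 2-fold, and none was called lower. FHL2, a LIM domain coactivator, went from 11, 9.11 and 7.9 CPM to 302, 286 and 299.5 CPM (log2 fold change 4.99, SE 0.09, adjusted p 1.30e-17), and CAVIN1, a coat protein of caveolae, from 19.5, 19.5 and 18.8 CPM to 246, 233 and 224 CPM (log2 fold change 3.6, SE 0.08, adjusted p 1.70e-16). The heavy chain of non-muscle myosin (MYH9) went from 426, 430.0 and 431 CPM to 1954, 1931 and 1713 CPM (log2 fold change 2.12, SE 0.06, adjusted p 5.97e-15). Vinculin (VCL), which links integrins to actin, was at 204, 210.2 and 221 CPM and 384, 399 and 393 CPM, a rise below the fold limit (log2 fold change 0.89, SE 0.05, adjusted p 1.16e-10). Libraries of the 2 groups did not overlap for these 4. The study followed 4 proteins by immunoblot, FN1, VCL, VIM and FAP, and 3 of their genes were called higher. That list was chosen by the study on these cells and is not independent evidence of its direction. FAP, a protease of activated fibroblasts, went from 2.71, 2.22 and 2.07 CPM to 20.6, 19.9 and 23 CPM (log2 fold change 3.19, SE 0.19, adjusted p 8.94e-11).

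Intermediate filament genes were called higher in 14 of 21 tested (66.7%) and lower in 2, or in 7 and 2 of 13 with 10 counts required in every EW8 library. Vimentin (VIM), the mesenchymal filament, went from 127, 119 and 121 CPM to 1073, 1073 and 1097 CPM (log2 fold change 3.14, SE 0.05, adjusted p 1.74e-18), with 24.4% of its exon bases shared with another gene. Lamin A/C (LMNA), the nuclear filament, went from 58.4, 69.2 and 64.9 CPM to 376, 357 and 325 CPM (log2 fold change 2.46, SE 0.08, adjusted p 2.59e-14). Epithelial keratins rose from low levels, KRT8 from 4.98 ± 0.974 to 31.8 ± 1.97 CPM, KRT18 from 4.69 ± 0.806 to 20.7 ± 0.42 CPM and KRT80 from 0.299 ± 0.108 to 34.3 ± 0.788 CPM (SD, n = 3). The hair keratin KRT81 was at least 133-fold higher, but it is a near copy of KRT86 and its count is uncertain. Basal keratins KRT5 and KRT14 had too few counts to be tested. Peripherin (PRPH, -1.86) and KRT17 (-1.45) were called lower, and PRPH shares 56.2% of its exon bases with another gene. Of 36 genes of desmosomes, hemidesmosomes and the cornified envelope, 18 were tested. Of these, 8 were called higher (44.4%, against 11.4% of all tested genes) and 2 lower, or 5 and 2 of 11 with 10 counts required. Among the 8, desmoplakin (DSP) rose by 3.06 and PKP3 was at least 48.9-fold higher. The 2 called lower were transglutaminase 2 (TGM2), which cross-links proteins, from 11.4, 14.5 and 16 CPM to 4.55, 4.68 and 4.93 CPM (log2 fold change -1.56, SE 0.16, adjusted p 3.30e-07), and TP63, a regulator of squamous epithelium (log2 fold change -1.05, SE 0.17, adjusted p 5.49e-05). TP63 stands at the fold limit and lost its call with the DESeq2 Wald test (adjusted p 0.0524), without vehicle replicate 3 (log2 fold change -0.999) and without doxycycline replicate 1 (-0.998).

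Of 19 cadherins, claudins and factors of the epithelial-mesenchymal transition, 8 were called higher (42.1%, against 11.4% of all tested genes) and none lower. With 10 counts required in every EW8 library, 5 of 15 were called higher (33.3%, against 8.69% of the genes then tested). The members that rose are known from both sides of that transition. CLDN4, a claudin of epithelia, went from 1.17, 0.785 and 0.683 CPM to 52.4, 46.3 and 40.5 CPM (log2 fold change 5.74, SE 0.23, adjusted p 4.68e-13), CDH13 rose by 4.32 and SNAI2, a repressor of epithelial genes, went from 1.4, 0.828 and 1.22 CPM to 14.4, 11.3 and 10.9 CPM (log2 fold change 3.4, SE 0.2, adjusted p 8.09e-11). ZEB1 rose by less than 2-fold (log2 fold change 0.33, SE 0.13, adjusted p 0.043) and TWIST1 did not pass the test (adjusted p 0.631). Of 20 S100 proteins and annexins, calcium-binding proteins of membranes and epithelia, 11 were called higher (55%) and 1 lower. S100A10 went from 1.98, 1.57 and 2.01 CPM to 243, 237 and 254 CPM (log2 fold change 7.04, SE 0.09, adjusted p 5.58e-20) and its partner ANXA2 from 326, 331 and 325 CPM to 2285, 2280.4 and 2251 CPM (log2 fold change 2.79, SE 0.05, adjusted p 4.51e-18). S100B, a marker of glia and neural crest, was the one that fell, from 12.1, 12 and 9.97 CPM to 2.33, 2.37 and 2.69 CPM (log2 fold change -2.21, SE 0.19, adjusted p 1.06e-07). ANXA8, at least 174-fold higher, has near-identical copies and its count is uncertain.

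**Figure D3:**
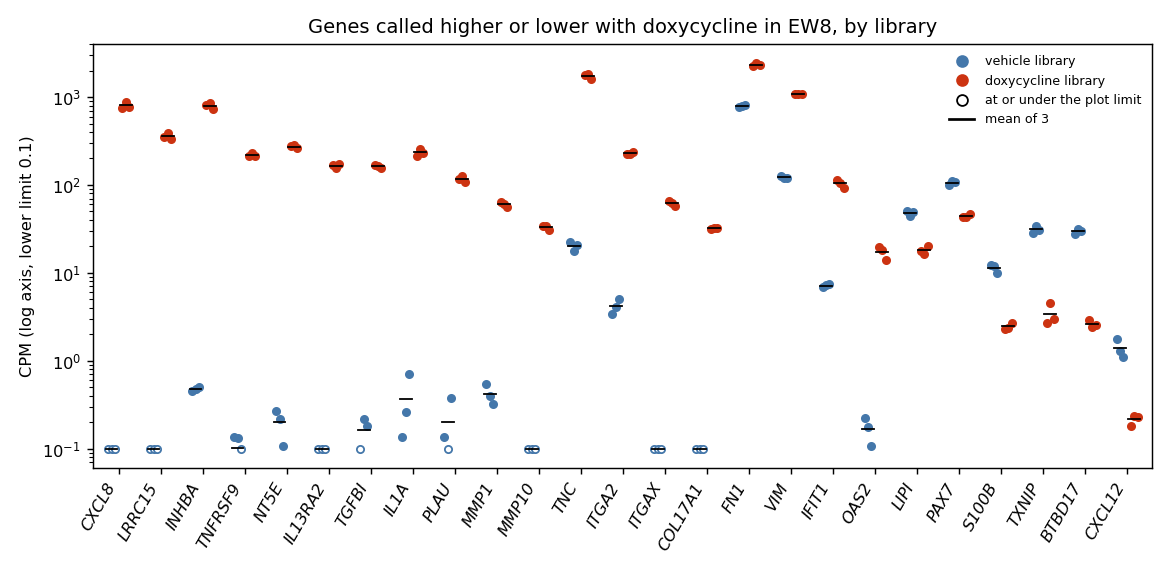
CPM by library in EW8 for 25 genes described in the text, on a log axis with values at or under 0.1 CPM drawn as open circles at 0.1: points are libraries (vehicle blue, doxycycline red) and bars the means of 3. For the first 19 genes all doxycycline libraries lie above all vehicle libraries, and for the last 6, from LIPI to CXCL12, they lie below them.

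Secreted signals of inflammation rose from very low levels. Of 19 interleukins and colony-stimulating factors tested, 18 were called higher (94.7%) and none lower, with a median log2 fold change of 4.45, or 3.48 with bounds at the floor. With 10 counts required in every EW8 library, which leaves out genes at the floor with vehicle, 7 of them could be tested and 6 were called higher (85.7%, against 8.69% of the 16429 genes then tested). The summed level of the tested members was between 14.1 and 14.6 CPM in the vehicle libraries and between 1141 and 1367 CPM with doxycycline. IL1B, the secreted partner of IL1A, held most of that sum with doxycycline, at 4.1, 4.93 and 4.49 CPM with vehicle and 806, 951 and 766 CPM with doxycycline (log2 fold change 7.54, SE 0.15, adjusted p 3.13e-17). LIF, a cytokine of the interleukin 6 family, went from 0.135, 0.153 and 0.144 CPM to 34.4, 46.3 and 35.8 CPM (log2 fold change 8.05, SE 0.22, adjusted p 2.00e-15). IL6 itself, which shares 20.7% of its exon bases with another gene, had no count with vehicle and 4.6, 6.28 and 5.32 CPM with doxycycline, at least 43.3-fold higher, and CSF3, the granulocyte growth factor, was at least 155-fold higher. Of 18 chemokines, 13 were called higher (72.2%) and 2 lower, or 6 and 1 of 9 with 10 counts required. CXCL3, a relative of CXCL8 that binds the same receptor, was at least 135-fold higher. CXCL12, the ligand of CXCR4, went the other way, from 1.76, 1.31 and 1.11 CPM to 0.179, 0.237 and 0.228 CPM (log2 fold change -2.69, SE 0.4, adjusted p 2.21e-05), below vehicle in all 3 libraries.

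In the list of NF-kB subunits, their regulators and the TNF superfamily, 16 of 33 were called higher (48.5%) and 1 lower. The precursor NFKB2 went from 10.4, 11.7 and 11.6 CPM to 74.7, 81.8 and 69 CPM (log2 fold change 2.74, SE 0.09, adjusted p 2.46e-14) and its partner RELB from 3.97, 4.58 and 4.1 CPM to 33.4, 36.8 and 30.5 CPM (log2 fold change 2.99, SE 0.16, adjusted p 2.77e-11). NFKBIA, the inhibitor that NF-kB itself induces, went from 35.6, 42.9 and 38 CPM to 194, 212 and 189 CPM (log2 fold change 2.35, SE 0.09, adjusted p 3.50e-13). All 3 were above vehicle in every doxycycline library. BIRC3, an inhibitor of apoptosis and a known NF-kB target, rose from 0.206 ± 0.131 to 14.7 ± 0.829 CPM (SD, n = 3). TNFRSF12A, the receptor of the cytokine TWEAK, went from 4.49, 6.58 and 5.3 CPM to 214, 211 and 184 CPM (log2 fold change 5.22, SE 0.11, adjusted p 9.59e-17), while TNFSF13B, the B cell factor BAFF, fell (log2 fold change -1.54, SE 0.25, adjusted p 6.24e-05).

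Interferon-stimulated genes were called higher in 42 of 46 tested (91.3%) and lower in none, with a median of 2.44. Of the interferon genes themselves, neither IFNB1 nor IFNL1 had enough counts to be tested, while IFNK was called higher. The summed level of the tested interferon-stimulated genes ran from 656 to 692 CPM with vehicle and from 2905 to 3353 CPM with doxycycline. IFIT1, which binds foreign RNA ends, went from 6.86, 7.28 and 7.4 CPM to 115, 106 and 92.9 CPM (log2 fold change 3.86, SE 0.09, adjusted p 3.57e-16). IFI6 went from 19.1, 17.3 and 20.1 CPM to 256, 262 and 201 CPM (log2 fold change 3.67, SE 0.13, adjusted p 8.28e-14) and OAS2, a sensor of double-stranded RNA, from 0.226, 0.174 and 0.108 CPM to 19.7, 18.3 and 13.9 CPM (log2 fold change 6.69, SE 0.28, adjusted p 7.59e-12). For all 3 the third doxycycline library was the lowest of its group, still above all vehicle libraries. STAT2, which carries the interferon signal, rose by 1.52, and IRF1 by 2.91. In the promoter windows of the 33 called members that had one, the interferon-stimulated response element, searched on both strands, was found in 17 (51.5%), against 2.42% of the windows of all tested genes, and TGAGTCA was found in 2 (6.06%). Members of this list are known by that element, so the first share describes the list.

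Antigen presentation changed less. Of 26 genes tested, 5 were called higher (19.2%) and 1 lower, and 10 more rose by less than 2-fold. HLA-E, the ligand of inhibitory natural killer receptors, went from 83.7, 86 and 79.9 CPM to 254, 261 and 237 CPM (log2 fold change 1.59, SE 0.07, adjusted p 2.72e-12), and TAP1, the peptide transporter, rose by 1.49. The light chain B2M went from 472 ± 19.2 to 759 ± 26.9 CPM (SD, n = 3), under the fold limit. The checkpoint ligands were called higher from low levels, CD274 (PD-L1) from 0.18, 0.305 and 0.18 CPM to 4.05, 4.07 and 2.63 CPM (log2 fold change 4.02, SE 0.35, adjusted p 2.89e-08), and PDCD1LG2 (PD-L2) by at least 86.4-fold. HLA-DRA fell (log2 fold change -1.11, SE 0.31, adjusted p 0.00911), with an adjusted p of 0.0521 without vehicle replicate 3 and 0.0601 without doxycycline replicate 2. Of 25 complement and prostaglandin genes, 7 were called higher (28%) and 2 lower. With 10 counts required in every EW8 library, 4 of 15 were called higher and none lower. PTGS2, the inducible cyclooxygenase, went from 0.271, 0.131 and 0.323 CPM to 1.97, 2.73 and 2.33 CPM (log2 fold change 3.24, SE 0.32, adjusted p 1.40e-07), and HPGD, which degrades prostaglandins, from 1.08, 0.436 and 1.11 CPM to 0.0358, 0.277 and 0.502 CPM (log2 fold change -1.73, adjusted p 0.0216), with overlapping groups. HPGD was no longer called without vehicle replicate 1 (adjusted p 0.0679), vehicle replicate 3 (0.0913), doxycycline replicate 1 (0.095) or doxycycline replicate 2 (0.0633). CFI, an inhibitor of complement, rose by 3.79 with 32% of its exon bases shared with another gene.

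**Figure D4:**
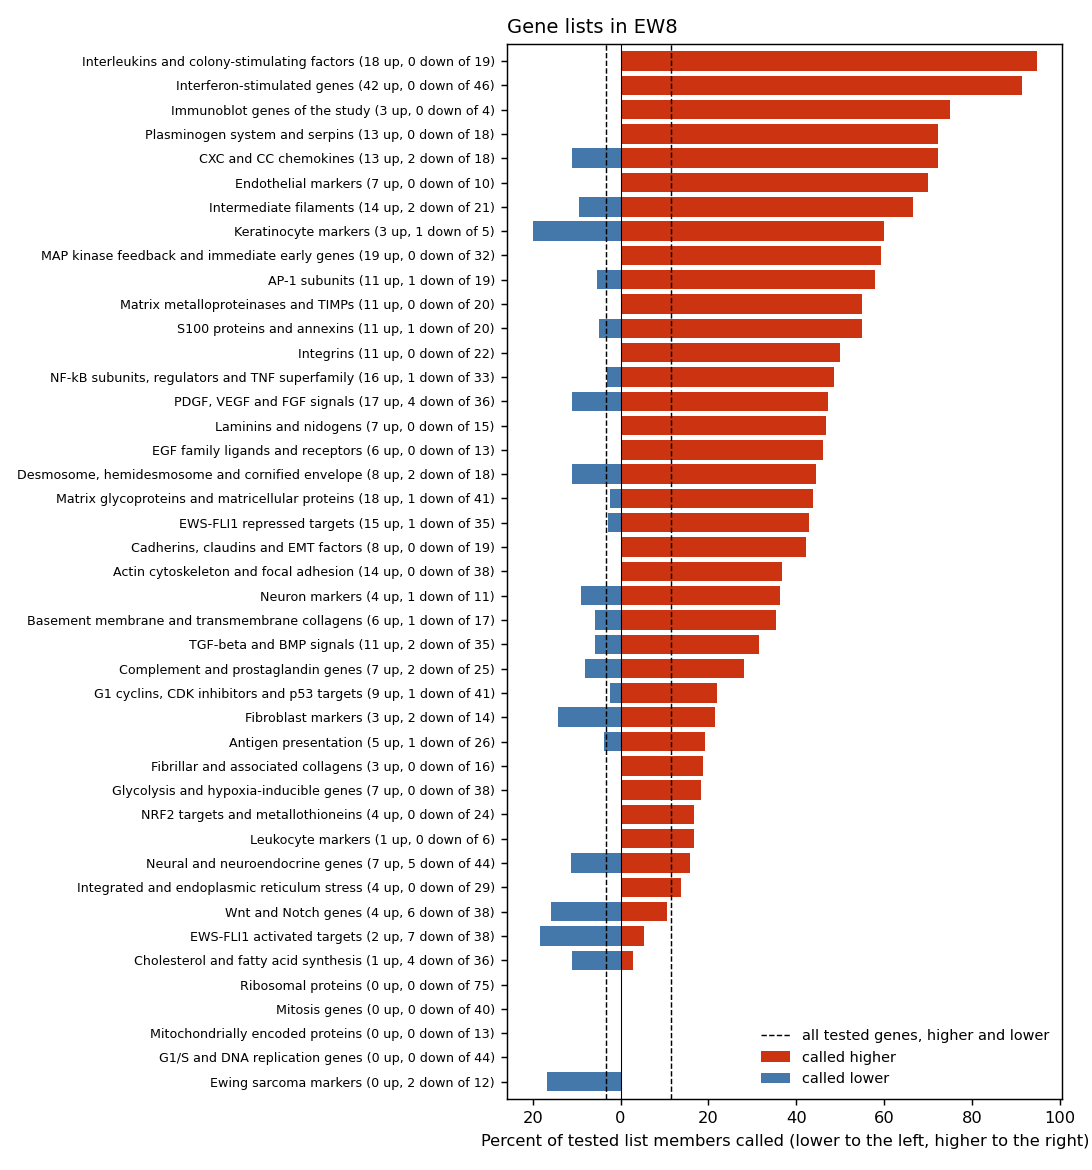
Share of the tested members of each gene list called higher (red, to the right) or lower (blue, to the left) in EW8, in percent, with the number called and tested in the labels. Dashed lines mark 11.4% higher and 3.38% lower among all tested genes, and the lists of interleukins (94.7%) and interferon-stimulated genes (91.3%) have the largest shares higher.

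Growth factor signals moved in both directions. Of 13 EGF family ligands and receptors, 6 were called higher (46.2%) and none lower, among them the receptor EGFR, from 8.23, 6.73 and 7.22 CPM to 50.9, 50.7 and 47.5 CPM (log2 fold change 2.75, SE 0.14, adjusted p 1.30e-10), and its ligand HBEGF, from 1.4, 1.83 and 1.69 CPM to 29.5, 32.3 and 28.4 CPM (log2 fold change 4.19, SE 0.11, adjusted p 1.74e-15). EREG was at least 34.9-fold higher and AREG rose by 4.55. Of 36 genes of the PDGF, VEGF, FGF, HGF and IGF pathways, 17 were called higher (47.2%) and 4 lower (11.1%). FGF1, a ligand for all FGF receptors, went from 0.248, 0.349 and 0.0539 CPM to 71.2, 67.4 and 67.6 CPM (log2 fold change 8.36, SE 0.21, adjusted p 6.74e-16), and MET, the receptor of hepatocyte growth factor, from 9.16, 9.76 and 7.11 CPM to 263, 276 and 272 CPM (log2 fold change 4.97, SE 0.15, adjusted p 4.88e-15). The receptors diverged, with FGFR1 (1.47) and IGF1R (2.38) higher and FGFR2 (-1.87), FGFR3 (-1.15) and PDGFRB (-1.08) lower. FGFR3 stood at -0.98 without doxycycline replicate 2 and PDGFRB just short of the fold limit without doxycycline replicate 3. NRP2, a receptor for semaphorins and VEGF, was at least 48.2-fold higher. Feedback regulators of MAP kinase and immediate early genes were called higher in 19 of 32 (59.4%) and lower in none. PHLDA1 went from 0.835, 0.523 and 0.79 CPM to 88.7, 92.3 and 88.9 CPM (log2 fold change 6.96, SE 0.23, adjusted p 3.00e-14), and the phosphatases DUSP1 and DUSP5, which switch MAP kinases off, rose by 3.04 and 2.98. IER3 rose by 4.48, with 26.5% of its exon bases shared with another gene.

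In the TGF-beta and BMP list, 11 of 35 were called higher (31.4%) and 2 lower. Beside INHBA, the receptor TGFBR2 went from 13.5, 16.2 and 15.1 CPM to 81.3, 89.5 and 86.4 CPM (log2 fold change 2.52, SE 0.1, adjusted p 3.05e-13), the inhibitory SMAD7 rose by 1.72 and FSTL3, which binds and blocks activins, went from 20.6, 23.2 and 22.1 CPM to 128, 140.0 and 119 CPM (log2 fold change 2.55, SE 0.11, adjusted p 1.46e-12). A ligand, a receptor and 2 antagonists of the pathway were thus higher in the same libraries. ID4, a target of BMP signals that blocks differentiation, fell from 38.4, 35.7 and 36.8 CPM to 9.27, 8.44 and 10.6 CPM (log2 fold change -1.97, SE 0.1, adjusted p 9.88e-12). Wnt and Notch genes leaned downward, with 4 of 38 called higher (10.5%), 6 lower (15.8%) and a median of -0.32. FZD1, a Wnt receptor, went from 162, 164 and 164 CPM to 62.3, 52.3 and 55.2 CPM (log2 fold change -1.53, SE 0.11, adjusted p 1.08e-09), WNT5A fell by 1.37 and SFRP2, a secreted Wnt antagonist, fell by 1.78 on the log2 scale. WNT7B was at least 36-fold higher and DKK3 rose by 2.64.

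The identity of the cells as Ewing sarcoma was checked on 12 markers, all of which had enough counts to be tested. Per kilobase of exon, NR0B1, a target of the fusion, went from 90.3 to 99.6 CPM and did not pass the test (adjusted p 0.199), and the surface protein CD99 from 164 to 253 CPM. FLI1, at 45.7, 42.7 and 40.3 CPM with vehicle and 40.7, 43.9 and 43 CPM with doxycycline (adjusted p 0.912), and EWSR1, at 314, 333 and 307 CPM and 296, 302 and 271 CPM (adjusted p 0.0954), did not pass the test, and reads of the fusion are not told apart from those of the separate genes. Of the 12, none was called higher and 2 lower, 5 fell by less than 2-fold and 1, CD99, rose by less than 2-fold. Among 38 known targets that the fusion activates, 7 were called lower (18.4%, against 3.38% of all genes), 17 more fell by less than 2-fold, 2 were called higher and the median was -0.51. PAX7, a factor of muscle stem cells, went from 99.8, 110.2 and 107 CPM to 43.4, 43.3 and 46.5 CPM (log2 fold change -1.25, SE 0.07, adjusted p 1.77e-11), LIPI, a phospholipase, from 50.2, 43.9 and 48.8 CPM to 17.6, 16.3 and 20.4 CPM (log2 fold change -1.4, SE 0.11, adjusted p 1.08e-08), and PPP1R1A, an inhibitor of protein phosphatase 1, from 196, 203 and 212 CPM to 84.3, 85.4 and 86.1 CPM (log2 fold change -1.26, SE 0.06, adjusted p 7.56e-12). For all 3 the doxycycline libraries were below every vehicle library. The 2 members called higher were TNC and CCK, and CCK, a peptide hormone that shares 33.2% of its exon bases with another gene, rose by 3.67. Among 35 known targets that the fusion represses, 15 were called higher (42.9%, against 11.4%) and 1 lower, with a median of 0.98. They include PLAU, FN1, VIM and TGFBR2 given above. CD44, a hyaluronan receptor, had no count with vehicle and 11.2, 10.4 and 11.2 CPM with doxycycline, at least 87.8-fold higher, and CDKN1A, the cell cycle inhibitor p21, went from 20.5, 23.2 and 22.2 CPM to 204, 211 and 191 CPM (log2 fold change 3.2, SE 0.19, adjusted p 1.43e-10). Several members of the repressed list are also in the matrix lists.

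Neural and neuroendocrine genes, which Ewing sarcoma cells express in part, were called higher in 7 of 44 (15.9%) and lower in 5 (11.4%), with a median of -0.11. CACNA1A, a neuronal calcium channel, went from 6.43, 7.76 and 7.49 CPM to 86.8, 87.5 and 85.7 CPM (log2 fold change 3.58, SE 0.12, adjusted p 2.81e-14), and TUBB3, a neuronal tubulin, rose by 2.33. Of those called lower, DCX, a microtubule protein of young neurons, went from 10.4, 10.1 and 10.5 CPM to 2.86, 3.36 and 5.25 CPM (log2 fold change -1.44, SE 0.37, adjusted p 0.00355), and the DESeq2 Wald test did not call it (adjusted p 0.301).

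Proliferation genes fell by small amounts. Of 44 genes of the G1/S transition and DNA replication, none was called, but 40 fell by less than 2-fold, 2 rose by less than 2-fold, and the median log2 fold change was -0.57. RFC3, a clamp loader subunit, went from 103, 95.9 and 98.2 CPM to 55.8, 54 and 55.7 CPM (log2 fold change -0.84, SE 0.06, adjusted p 1.05e-09), MCM10, a replication initiation factor, fell by 0.86 and PCNA, the clamp itself, went from 259, 247 and 261 CPM to 161, 160.3 and 162 CPM (log2 fold change -0.66, SE 0.06, adjusted p 3.40e-08). Of 40 mitosis genes, none was called, 36 fell by less than 2-fold, 1 rose and the median was -0.4. TOP2A, the topoisomerase of dividing cells, went from 1091, 985 and 1064 CPM to 658, 655 and 686 CPM (log2 fold change -0.65, SE 0.06, adjusted p 2.62e-08). At any fold, 22% of all tested genes were lower, and 45.1% of protein-coding genes between 10 and 100 CPM per kilobase of exon with vehicle. The groups did not overlap for RFC3, PCNA or TOP2A. Of 41 G1 cyclins, inhibitors of cyclin-dependent kinases and p53 targets, 9 were called higher (22.0%) and 1 lower. GADD45A, a stress-induced growth inhibitor, went from 9.16, 8.98 and 6.93 CPM to 97.6, 100.2 and 90.9 CPM (log2 fold change 3.53, SE 0.1, adjusted p 2.00e-15), BCL2A1, which blocks apoptosis, was at least 317-fold higher, and CCND1, the cyclin D1 gene, fell by less than 2-fold from 1417, 1423 and 1419 CPM to 998, 966 and 962 CPM (log2 fold change -0.54, SE 0.05, adjusted p 1.88e-08). MYC was at 197, 216 and 207 CPM with vehicle and 186, 199.6 and 176 CPM with doxycycline and did not pass the test (log2 fold change -0.14, SE 0.08, adjusted p 0.175), while MYCN was called lower (log2 fold change -2.0, SE 0.51, adjusted p 0.00367).

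Stress and metabolic genes were read against the 11.4% of all tested genes called higher and the 3.38% called lower. At any fold, 21.9% of all tested genes were higher and 22% lower. Among protein-coding genes over 100 CPM per kilobase of exon with vehicle, 43.4% were lower at any fold, and between 10 and 100 this was 45.1%. Of 29 genes of the integrated and endoplasmic reticulum stress responses, 4 were called higher (13.8%), none was called lower, and 5 more rose and 5 fell by less than 2-fold, with PPP1R15A, the phosphatase subunit that ends the integrated stress response, at 15.5, 19.6 and 15.4 CPM and 119.6, 122 and 108 CPM (log2 fold change 2.79, SE 0.1, adjusted p 4.80e-14). Of 24 NRF2 targets and metallothioneins, 4 were called higher (16.7%), among them the aldo-keto reductases AKR1C1 (5.3) and AKR1C2 (4.46), whose near-identical sequence makes both counts uncertain. Of 38 glycolysis and hypoxia-inducible genes, 7 were called higher (18.4%), none was called lower, and 9 more rose and 9 fell by less than 2-fold. ADM, a vasodilator peptide, rose by 3.4, and NDRG1 went from 5.64, 6.67 and 7.6 CPM to 153, 151 and 146 CPM (log2 fold change 4.49, SE 0.11, adjusted p 2.85e-16). Of 36 cholesterol and fatty acid synthesis genes, 4 were called lower (11.1%), 15 more fell and 3 rose by less than 2-fold, and 1 was called higher. HMGCS1, the first committed enzyme of cholesterol synthesis, went from 158, 147 and 154 CPM to 63.7, 68.7 and 73.7 CPM (log2 fold change -1.16, SE 0.11, adjusted p 1.07e-07), while ABCA1, which exports cholesterol, rose by 1.58 and TM7SF2, a sterol reductase, was called lower (log2 fold change -1.26, SE 0.18, adjusted p 1.47e-05). No ribosomal protein gene of 75 was called, 30 fell by less than 2-fold and the median was -0.12, with RPL11 at -0.24 and RPL22 at -0.38 (adjusted p 2.35e-04 and 3.57e-05). None of the 13 mitochondrially encoded genes passed the test at any fold, with MT-CYB at 970.3, 1013 and 767 CPM and 1058, 1063 and 1068 CPM (adjusted p 0.473).

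Markers of other cell types were read in the same libraries, with levels summed over the tested markers. Over all tested genes, 11.4% were called higher and 3.38% lower. Of 14 leukocyte markers, 8 had too few counts to be tested, among them CD3D, CD3E, LYZ and SPI1, and CSF1R was called higher (1.8). Their summed level was between 86.3 and 95.7 CPM with vehicle and between 89.8 and 94.0 CPM with doxycycline, most of it PTPRC at 65.9 ± 5.41 to 74.9 ± 2.53 CPM. Of 10 endothelial markers, 7 were called higher and none lower, and the summed level went from between 22.2 and 23.1 CPM to between 70.5 and 77.9 CPM. With 10 counts required in every EW8 library, 4 endothelial markers could be tested and 2 were called higher. TIE1, a receptor of endothelium, was at least 113-fold higher, TEK, its partner, went from 0.0902, 0 and 0.144 CPM to 6.75, 8.22 and 7.06 CPM (log2 fold change 6.45, SE 0.46, adjusted p 8.33e-09) and PECAM1 from 8.01, 6.45 and 6.75 CPM to 39.6, 32.7 and 40.1 CPM (log2 fold change 2.41, SE 0.14, adjusted p 6.17e-10). CDH5, the defining cadherin of endothelium, was at 0.429, 1.83 and 0.359 CPM and 0.573, 0.909 and 0.32 CPM and did not pass the test (adjusted p 0.579). Of 14 fibroblast markers, 3 were called higher (FAP, PDGFRA and MFAP5) and 2 lower (LUM and PDGFRB, the latter just short of the fold limit without doxycycline replicate 3), and the summed level went from between 389.6 and 432 CPM to between 363 and 378 CPM. COL1A2 was at 0.226, 0.392 and 0.431 CPM and 0.43, 0.277 and 0.137 CPM. Of 13 keratinocyte markers, 8 had too few counts to be tested, KRT5, KRT14 and IVL among them, 3 were called higher (SFN, PERP and COL17A1) and TP63 lower (not called with the DESeq2 Wald test, without vehicle replicate 3 or without doxycycline replicate 1), with a summed level from between 169 and 176 CPM to between 142 and 146 CPM. Of 11 neuron markers, 4 were called higher (STMN2, GAP43, NEFL and, at only 0.501, 0.0395 and 0 CPM with doxycycline, NEFM, whose adjusted p was 0.208 without doxycycline replicate 1), DCX lower, and the summed level went from between 120.4 and 125 CPM to between 83.9 and 95.5 CPM. The part of other cells in these values was not tested.

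Genes that rose lay next to each other at several places of the genome (hg38), counted as neighbouring protein-coding genes that were tested and called in the same direction. Genes with too few counts to be tested were skipped, so a run can span silent genes that did not respond. Genes silent with vehicle that rose were counted, which lengthens the runs. The lengths were not set against an expected length and are a description. The longest run, 11 genes on chromosome 4 from 73431138 to 74794686, held AFP, AFM, 5 CXC chemokines including CXCL8, MTHFD2L, and the EGF family ligands EREG, AREG and BTC. In it, AFM and BTC had fewer than 0.5 CPM in every doxycycline library, and MTHFD2L, a mitochondrial folate enzyme, rose from 4.93 ± 1.02 to 17.7 ± 0.679 CPM (SD, n = 3). The next, 9 genes on chromosome 12 from 52168996 to 52952901, held keratins from KRT80 to KRT18. Of these KRT75 had no count with vehicle and 18.5, 21.4 and 18.2 CPM with doxycycline, at least 155-fold higher. A run of 8 genes on chromosome 2, from 112773915 to 113278950, held IL1A, IL1B, IL36G, IL36B, IL36RN, IL1RN, PSD4 and PAX8. On chromosome 12, from 10158301 to 10454685, 7 genes included the scavenger receptor OLR1, at least 55.9-fold higher, and the natural killer receptor genes KLRD1, KLRC1, KLRC2 and KLRC3, the KLRC genes being close copies with uncertain counts. Others were 6 genes on chromosome 10 with the IFIT family and 4 genes on chromosome 11 with MMP10, MMP1, MMP3 and MMP12. FOSL1 lay in a run of 5 on chromosome 11, with DRAP1 at 77, 78.5 and 78.7 CPM and 179.5, 186 and 170.0 CPM (log2 fold change 1.19, SE 0.06, adjusted p 3.67e-12). Neighbours can share reads where they overlap, and strand was not used in counting. The one run of falling genes of that length was that of the 5 MBD3L genes.

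The response in EW8 was set against that in TC71 by the difference of the 2 log2 fold changes (TC71 minus EW8), tested in the same fit. Over all genes the difference was over 1 for 878 genes (4.18%) and under -1 for 603 (2.87%), 7.05% in either direction. Of the 3112 genes called in EW8, 771 differed in this way. Of genes called higher in EW8, 406 (16.9%) responded more in EW8 and 259 more in TC71. Of genes called lower in EW8, 96 fell further in EW8 and 10 further in TC71, and 27 genes were called in opposite directions. Genes called in EW8 were chosen by the size of their EW8 response, which tilts these counts towards EW8 in advance, so they are a description. Differences for genes with a group at the floor in either line are fitted from very few counts, so the genes named next were above the floor in all 4 groups.

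BIRC3 rose by 6.14 in EW8 and stood at -0.06 in TC71, a difference of -6.2 (SE 0.41, adjusted p 4.12e-09). The transcription factor gene PAX8, which neighbours the IL1 cluster, rose by 6.29 in EW8 against 1.11 in TC71, a difference of -5.18 (SE 0.46, adjusted p 2.25e-07). NRIP1, a corepressor of nuclear receptors, had 6.53 against 1.64, a difference of -4.89 (SE 0.27, adjusted p 4.34e-10). The chemokine receptor gene CCR7 (-5.35, SE 0.85, adjusted p 1.71e-04), the laminin gene LAMA4 (-6.07, SE 0.5, adjusted p 8.69e-08) and the somatostatin receptor gene SSTR2 (-4.94, SE 0.8, adjusted p 2.09e-04) completed the 6 largest on the side of EW8. On the other side FLNC, a muscle filamin, rose by 3.16 in EW8, from 249, 277 and 283 CPM to 2597, 2452 and 2175 CPM, and by 11.34 in TC71, a difference of 8.18 (SE 0.18, adjusted p 5.15e-15). S100A2 (7.29, SE 0.32, adjusted p 1.63e-11), AHNAK2 (5.89, SE 0.34, adjusted p 6.35e-10), MMP1 (5.57, SE 0.39, adjusted p 9.32e-09), the phosphatase gene PTPN22 (5.52, SE 0.33, adjusted p 1.20e-09, with a rise in EW8 of only 0.99 without vehicle replicate 2) and the G protein gene GNAO1 (5.09, SE 0.64, adjusted p 1.35e-05) followed, and GNAO1 stood at -1.63 in EW8, which the DESeq2 Wald test did not call (adjusted p 0.0747), and at 3.46 in TC71. Each of these 12 genes had been chosen for the size of its difference.

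By list, the difference (TC71 minus EW8) was counted over all tested members, whether or not they were called in EW8. Members with a group at the floor were included, and their differences are fitted from very few counts. Among all tested genes, 2.87% had a difference under -1 and 4.18% one over 1, at an adjusted p under 0.05 (edgeR quasi-likelihood test). Of the 46 interferon-stimulated genes, 20 had a difference under -1 and 2 one over 1. In the NF-kB and TNF list 11 of 33 were under -1 and 2 over 1, and among the 19 AP-1 subunits 8 and 1, with FOSL2 differing by -2.5 (SE 0.16, adjusted p 2.90e-09) and FOS, in the other direction, by 2.21 (SE 0.09, adjusted p 6.41e-12). Matrix glycoproteins leaned the other way, with 2 of 41 under -1 and 13 over 1, as did MMPs and TIMPs with 1 and 9 of 20. FN1 rose by 1.56 in EW8 and 4.91 in TC71, a difference of 3.35 (SE 0.21, adjusted p 1.88e-09). Its means with vehicle and doxycycline were 788 and 2321.5 CPM in EW8, and 64.7 and 1942 CPM in TC71. VIM rose by 3.14 and 1.67, a difference of -1.48 (SE 0.07, adjusted p 2.11e-11), with means of 122 and 1081 CPM in EW8, and 529 and 1679 CPM in TC71. The FOS means were 36.8 and 1078 CPM in EW8, and 11.7 and 1580 CPM in TC71. The vehicle levels of these 3 genes thus differed between the lines. The counts by list are descriptions of lists that share members.

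**Figure D5:**
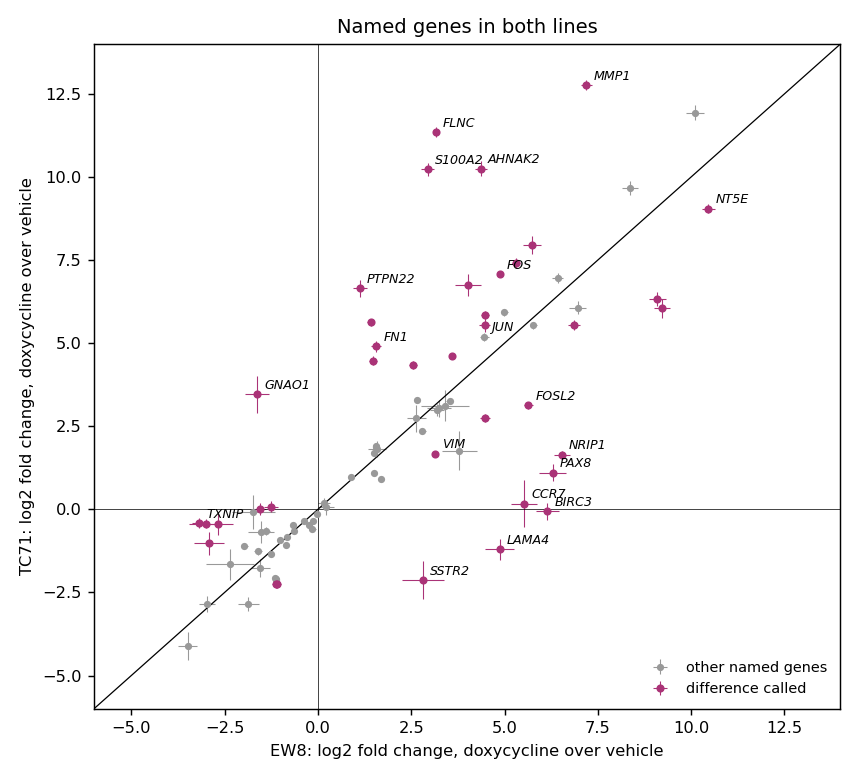
Log2 fold change of doxycycline over vehicle in EW8 (horizontal) and TC71 (vertical) for 86 named genes above the floor in all 4 groups, with bars of 1 SE, back-calculated from the F statistic, and the diagonal at equal responses. Purple points, 38 in all, differ by more than 1 with an adjusted p under 0.05, and FLNC lies farthest above the diagonal and BIRC3 farthest below it.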

How the data were processed

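Poly(A) RNA of EW8 (6 libraries) and TC71 (6) was sequenced with a stranded kit. The authors aligned reads to GRCh38 (STAR, per the submitters' processing notes) and deposited raw counts per gene from featureCounts 2.0.1 with GENCODE 29. Both mates of a pair are counted, strand was not used in counting, and reads on several places or genes are left out. All 12 libraries were fitted together with edgeR 4.0.16 in R 4.3.3 (filterByExpr, TMM, quasi-likelihood test, Benjamini-Hochberg adjustment), and DESeq2 1.42.0, which the study names for its own comparisons, was an alternative. Biotypes came from GENCODE 44. Tested on simulated data for the EW8 comparison (21013 genes), the fit recovered 100% of genes changed by 1.5 or by 2.5 on the log2 scale. It called 2 unchanged genes. The changed genes were taken only from those well above the floor with vehicle, and every gene was given the same dispersion. The simulation therefore does not show recovery for genes near the floor or with a wider spread.

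The members and gene lists were chosen with earlier results of these data known. Named genes were the study's genes, JUN, FOS, FN1, VCL, VIM, FAP, MYC, FLI1 and EWSR1. Next came the largest 8 rises (vehicle above the floor) and 8 falls (doxycycline above the floor), and the 6 largest bounds. The rule also took the 8 largest gains and losses per kilobase. Last came up to 2 members called higher and 1 lower in each list, and 6 differences on each side. A few genes that this rule or the lists take in are not reported here. Other list members were named after their values were seen.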

Additional observations from a re-analysis of the deposited data

Results flagged for a closer look

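Of the named genes reported here, 38 were picked out because the response to doxycycline differed between the lines in the test of the difference itself, with an adjusted p under 0.05 (edgeR quasi-likelihood test) and a size over 1. Each was above the floor in all 4 groups. Values are the log2 fold change in TC71 minus that in EW8. For 15 of them the value was below 0: BIRC3 -6.20, LAMA4 -6.07, CCR7 -5.35, PAX8 -5.18, SSTR2 -4.94, NRIP1 -4.89, IL1A -3.18, PLAU -2.75, FOSL2 -2.50, IER3 -1.73, VIM -1.48, NT5E -1.41, FOSL1 -1.31, MBD3L2 -1.15 and MBD3L2B -1.13.

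For the other 23 the value was above 0: FLNC 8.18, S100A2 7.29, AHNAK2 5.89, MMP1 5.57, PTPN22 5.52, GNAO1 5.09, COL5A3 4.21, FN1 3.35, LGALS1 3.01, TXNIP 2.77, CD274 2.74, CTCFL 2.58, CXCL12 2.23, CLDN4 2.21, FOS 2.21, AKR1C1 2.12, LRRN3 1.89, FSTL3 1.78, TGM2 1.57, NDRG1 1.35, TM7SF2 1.35, AKR1C2 1.09 and CAVIN1 1.00. AKR1C1 and AKR1C2 are near-identical in sequence, as are MBD3L2 and MBD3L2B among the genes below 0, so their counts are uncertain. TC71 vehicle replicate 1 enters every one of these values, and without it 791 genes in place of 878 had a difference over 1, and 846 in place of 603 a difference under -1. No explanation of these differences was tested.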

How the results depend on the processing

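In EW8, 2401 genes were called higher and 711 lower. Requiring 10 counts in every EW8 library left 16429 genes and 1428 called higher, since genes at the floor with vehicle then drop out, and 71.7% of its calls were higher. In the gene lists it left 7 interleukins and colony-stimulating factors, 9 chemokines, 14 MMPs and TIMPs and 14 integrins to test, of which 6, 6, 6 and 7 were called higher in place of 18, 13, 11 and 11. Basement membrane collagens went from 6 of 17 to 2 of 11 and EGF family members from 6 of 13 to 3 of 9. PDGF, VEGF and FGF signals went from 17 of 36 to 11 of 28 and endothelial markers from 7 of 10 to 2 of 4. Without the fold limit 4598 genes were higher and 4618 lower, an even split (49.9% higher), 261 list genes were lower in place of 42, and the difference between lines was above 0 for 2572 genes and below 0 for 1485. The other alternatives kept both counts within 1.5 times: the DESeq2 Wald test (2481 higher and 733 lower), median-ratio scaling, library size alone (2321 and 821), no filter on low counts, EW8 libraries only, halved counts and leaving out TC71 vehicle replicate 1 (2693 and 671). With each EW8 library left out in turn, 2376 to 2463 genes were higher and 551 to 654 lower. JUN stayed between 4.42 and 4.58 and FOS between 4.87 and 4.97 in these.

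With the replicate number as a block, 2327 genes were higher and 641 lower, of which 2296 and 625 were also called without it. Vehicle and doxycycline libraries of the same number did not deviate together (r between -0.02 and 0.004 for the 3 pairs). These values show no pairing by number. They are taken over all tested genes, with counting noise included, and cannot exclude that samples were handled in pairs.

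FLI1, not called, changed sign around 0. Its log2 fold change was -0.01, and 0.0016 with 10 counts required, 0.035 with EW8 libraries only, 0.037 with halved counts, 0.034 without TC71 vehicle replicate 1, and between -0.016 and 0.068 with EW8 libraries left out. The cause was not tested. Over named genes, 1837 of 1867 values under alternatives kept direction and call, 22 lost the call and 8, all of FLI1, changed sign. Scaling by library size alone put the median of the G1 cyclin list at -0.03 (0.02 otherwise) and of mitochondrially encoded genes at -0.01 (0.05), and median-ratio scaling put that of fibroblast markers at 0.0001 (-0.01). Below about 0.12 CPM, levels could not be told from 0 at this depth.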

Other observations

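Long non-coding RNAs are outside the lists above, and the genes given here were chosen after their values were seen. Of the genes called higher in EW8, 380 were lncRNAs (15.8%), and of those called lower 109 (15.3%), against 13.2% of all tested genes. LUCAT1, a stress-responsive lncRNA, was at 0.248, 0.0872 and 0.126 CPM with vehicle and 24.5, 22.1 and 20.2 CPM with doxycycline (log2 fold change 7.18, SE 0.3, adjusted p 6.43e-13). MIR100HG, the host transcript of a microRNA cluster, was at 0.226, 0.305 and 0.287 CPM and 31.5, 32.3 and 33.3 CPM (log2 fold change 6.87, SE 0.21, adjusted p 8.18e-15). Neither gene had a vehicle library as high as any treated one. With vehicle at the floor, LINC00520 was at least 103-fold higher, LNCTSI at least 88.3-fold and CLDN14-AS1, annotated antisense to CLDN14, at least 82.7-fold. Strand was not used in counting, so reads of CLDN14-AS1 and CLDN14 cannot be told apart where the genes overlap.

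Among lncRNAs called lower, H19, an imprinted transcript, went from 5.95, 7.15 and 8.73 CPM with vehicle to 0.752, 1.25 and 1.07 CPM with doxycycline (log2 fold change -2.83, SE 0.34, adjusted p 1.65e-06), and KIF25-AS1 from 3.34, 3.09 and 2.5 CPM to 0.698, 0.277 and 0.434 CPM (log2 fold change -2.65, SE 0.55, adjusted p 6.37e-04). The groups did not overlap for either. LINC01237, LINC01844 and LINC02723 were called lower from under 2 CPM in every vehicle library.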
